A study of Mus musculus with 2 samples.

Results

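The genes described here encode 8 receptors that tune lymphocyte activation: Lag3, Tigit, Pdcd1, Ctla4, Cd96, Cd226, Cd5 and Cd6. They were taken by name from the 32285 genes counted in the files, and all 8 were found there. The data were 2 single-cell libraries of proximal small intestine from C57BL/6 mice, both of 1 control group, in a series on lowered M1 or M3 muscarinic receptor expression. Control 1 is titled an M1 control and control 2 an M3 control. No knockdown sample was analysed here, no age or sex is used, and the labels do not say whether the libraries came from separate animals or from pooled ones. EDTA and then TrypLE, a trypsin-like enzyme, released villus and crypt fractions, which were then pooled, and the protocol names no sorting of lymphocytes.

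Receptors of this kind sit beside the T cell receptor and raise or lower what it signals. Lag3 and Pdcd1 (PD-1) are inhibitory, Lag3 through MHC class II and other ligands and Pdcd1 through Cd274 and Pdcd1lg2. Ctla4 competes with the costimulatory receptor Cd28 for Cd80 and Cd86. Tigit, Cd96 and Cd226 share nectin-family ligands, with Cd226 activating and Tigit inhibitory. Cd5 and Cd6 are scavenger-receptor-family proteins of the T cell surface that temper receptor signalling. The intestinal epithelium holds intraepithelial lymphocytes, many of them gamma delta T cells or T cells with the Cd8a homodimer, and low Cd5 is a known trait of such cells in mice.

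Barcodes with 500 or more genes and at least 1 Ptprc UMI (a unique molecular identifier, which counts 1 RNA molecule; Ptprc encodes the pan-leukocyte protein CD45) numbered 3098 in control 1 and 2107 in control 2. They were put into exclusive classes by UMIs of 4 genes. The Trdc class (T cell receptor delta constant region) held 1119 and 766 barcodes. The Cd8b1 class (CD8 beta chain) held 193 and 159, and the Cd4 class held 63 and 57. The Kit class held 234 and 126 barcodes with Kit, a stem cell factor receptor, and none of the other genes. A further 108 and 43 barcodes were mixed, with 2 or more of Trdc, Cd8b1 and Cd4, and 1381 and 956 had none of the 4 genes. Barcodes with Epcam and no Ptprc UMI, 2411 and 1562 in number, served as the epithelial reference, in which a lymphocyte receptor should be missing. Median depth in control 1 and control 2 was 5214.5 and 4692 UMIs in Ptprc-positive barcodes, and 4061 and 3987.5 in the epithelial reference.

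A class is a readout of 1 UMI and not a pure cell type. A Cd3 gene was seen in 97.2% and 94.4% of Trdc barcodes, 90.7% and 91.2% of Cd8b1 barcodes, 79.4% and 87.7% of Cd4 barcodes and 86.3% and 81.7% of Kit barcodes, in control 1 and control 2. Trac, the constant region of the other T cell receptor, was seen in 61.5% and 46.7% of Trdc barcodes. In the epithelial reference it was seen in 2.86% and 3.20%. The source of Trac in Trdc barcodes was not tested, so the class is not taken to stand for gamma delta T cells alone. Myeloid markers (6 of 6 and 5 of 6 detected) summed to 3650 CPM in the Cd4 class of control 1, led by C1qa, and to 313 CPM in control 2. Mast cell markers (5 of 6 and 6 of 6 detected) summed to 36.3 CPM in the Kit class of control 1 and to 1591 CPM in control 2. Plasmacytoid dendritic cell markers summed to 731 and 520 CPM in the Cd8b1 class (4 of 4 detected in both) and to 848 and 62.5 CPM in the Cd4 class (4 of 4 and 1 of 4). The part of these other cells in the results was not tested, and counts without barcodes that carry their markers are given where a call changed. CPM is UMIs of a gene, or of a list, per 1000000 UMIs of the summed class. Erythroid markers (4 or 5 of 5 detected) summed to 9511 and 7943 CPM in the Trdc class, 12942 and 13161 CPM in the Cd8b1 class, 25071 and 3483 CPM in the Cd4 class and 1043 and 3017 CPM in the Kit class. Without barcodes with 50% or more hemoglobin UMIs, the counts of receptors called per class against the others were as in the whole set (1, 2, 2 and 3). Single barcodes held 20.8% of the UMIs of the Cd8b1 class and 17.2% of those of the Kit class in control 2. Whole-library depth was 54451793 and 36139325 UMIs, and 17 barcode sequences occurred in both libraries.

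RefSeq promoter entries (GRCm38.p6) matched 5 of the 8 genes: Tigit, Pdcd1, Ctla4, Cd96 and Cd5. The windows of Cd5, which had 4 UMIs in the Trdc class and 1 in the Kit class over both libraries, and of Cd96, found in over 46% of thinned barcodes in each of the 4 classes, are shown as a narrowly and a broadly detected gene. Each runs 5′ to 3′ from 250 bases before the start site to 50 after it; Cd5 is chr19:10738925-10739224, minus strand, Cd96 is chr16:46120199-46120498, minus strand, and capitals mark the ETS core GGAAG on either strand.
Cd5: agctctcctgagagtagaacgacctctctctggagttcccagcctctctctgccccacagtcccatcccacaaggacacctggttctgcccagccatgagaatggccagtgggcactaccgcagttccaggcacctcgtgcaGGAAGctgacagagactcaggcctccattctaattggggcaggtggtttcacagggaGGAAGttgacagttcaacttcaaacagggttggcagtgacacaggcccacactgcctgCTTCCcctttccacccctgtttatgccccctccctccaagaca
Cd96: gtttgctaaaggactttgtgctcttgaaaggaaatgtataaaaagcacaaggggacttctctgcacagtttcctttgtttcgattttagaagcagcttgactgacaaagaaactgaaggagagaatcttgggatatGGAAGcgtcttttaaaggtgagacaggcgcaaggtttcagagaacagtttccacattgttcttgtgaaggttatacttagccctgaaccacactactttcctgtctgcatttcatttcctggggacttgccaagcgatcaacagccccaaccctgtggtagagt
The ETS core was searched on both strands and occurred 3 times in the Cd5 window and 1 time in the Cd96 window; 71.4% of 32851 windows of this length hold it. The RUNX letters TGTGGT (either strand) occurred 2 times in the Cd96 window and 0 times in the Cd5 window, against 16.8% of all windows with at least 1. These letters are a description and not sites.

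In the annotation (GENCODE M21, GRCm38) all 8 are protein-coding genes, and no exon of theirs overlaps an exon of another gene. Cd5 (chr19:10717116-10739002) and Cd6 (chr19:10789341-10830058) lie on the minus strand of chromosome 19, 50338 bases apart with 0 protein-coding genes between them. Lag3 (chr6:124904361-124911705) lies 16139 bases from Cd4, with 0 protein-coding genes between. Ctla4 (chr1:60887000-60915832) lies between Cd28 and Icos, 113640 and 62094 bases away. Pdcd1 is at chr1:94038305-94052553, Tigit at chr16:43648867-43664146, Cd96 at chr16:46035657-46120251 and Cd226 at chr18:89176967-89272229.

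Cd5 and Cd6, the T cell receptor-associated pair, were high in the Cd8b1 and Cd4 classes and low or near 0 in the Trdc and Kit classes. Cd5 was at 0.134 and 0.566 CPM in the Trdc class of control 1 and control 2 (1 and 3 UMIs), 138 and 67.1 CPM in the Cd8b1 class, 201 and 202 CPM in the Cd4 class and 0.399 and 0 CPM in the Kit class (1 and 0 UMIs). The Cd8b1 and Cd4 classes lay above the other pair in both libraries, without overlap. Cd6 was at 13.8 and 9.62 CPM in the Trdc class, 264 and 209.7 CPM in the Cd8b1 class, 314 and 250.05 CPM in the Cd4 class and 2.00 and 2.37 CPM in the Kit class. Unlike Cd5, Cd6 therefore remained at a low level in the Trdc class, with 103 and 51 UMIs.

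The same order was seen at equal depth. After each barcode was thinned to 2000 UMIs, Cd5 was found in 0 of 1025 and 0 of 672 Trdc barcodes, which allows shares of up to 0.359% and 0.547% (95% binomial limits). It was found in 23.1% (17.2% to 29.9%) and 14.8% (9.49% to 21.5%) of Cd8b1 barcodes, 29.6% (18.0% to 43.6%) and 30.6% (18.3% to 45.4%) of Cd4 barcodes, and 0 of 216 and 0 of 108 Kit barcodes. Intervals are exact binomial ones and cover counting of barcodes only. The epithelial reference was at 0.164% and 0.0834%, so the thinned Trdc and Kit shares lay at or below background. By CPM the reference was at 0.263 and 0.303, below the Trdc class of control 2 and the Kit class of control 1, each from 3 UMIs or fewer. Cd6 was in 3.12% and 1.79% of thinned Trdc barcodes, 36.3% and 38.3% of Cd8b1, 40.7% and 40.8% of Cd4, and 1.39% and 0.926% of Kit barcodes, against 0.109% and 0.167% of the epithelial reference.

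**Figure D1:**
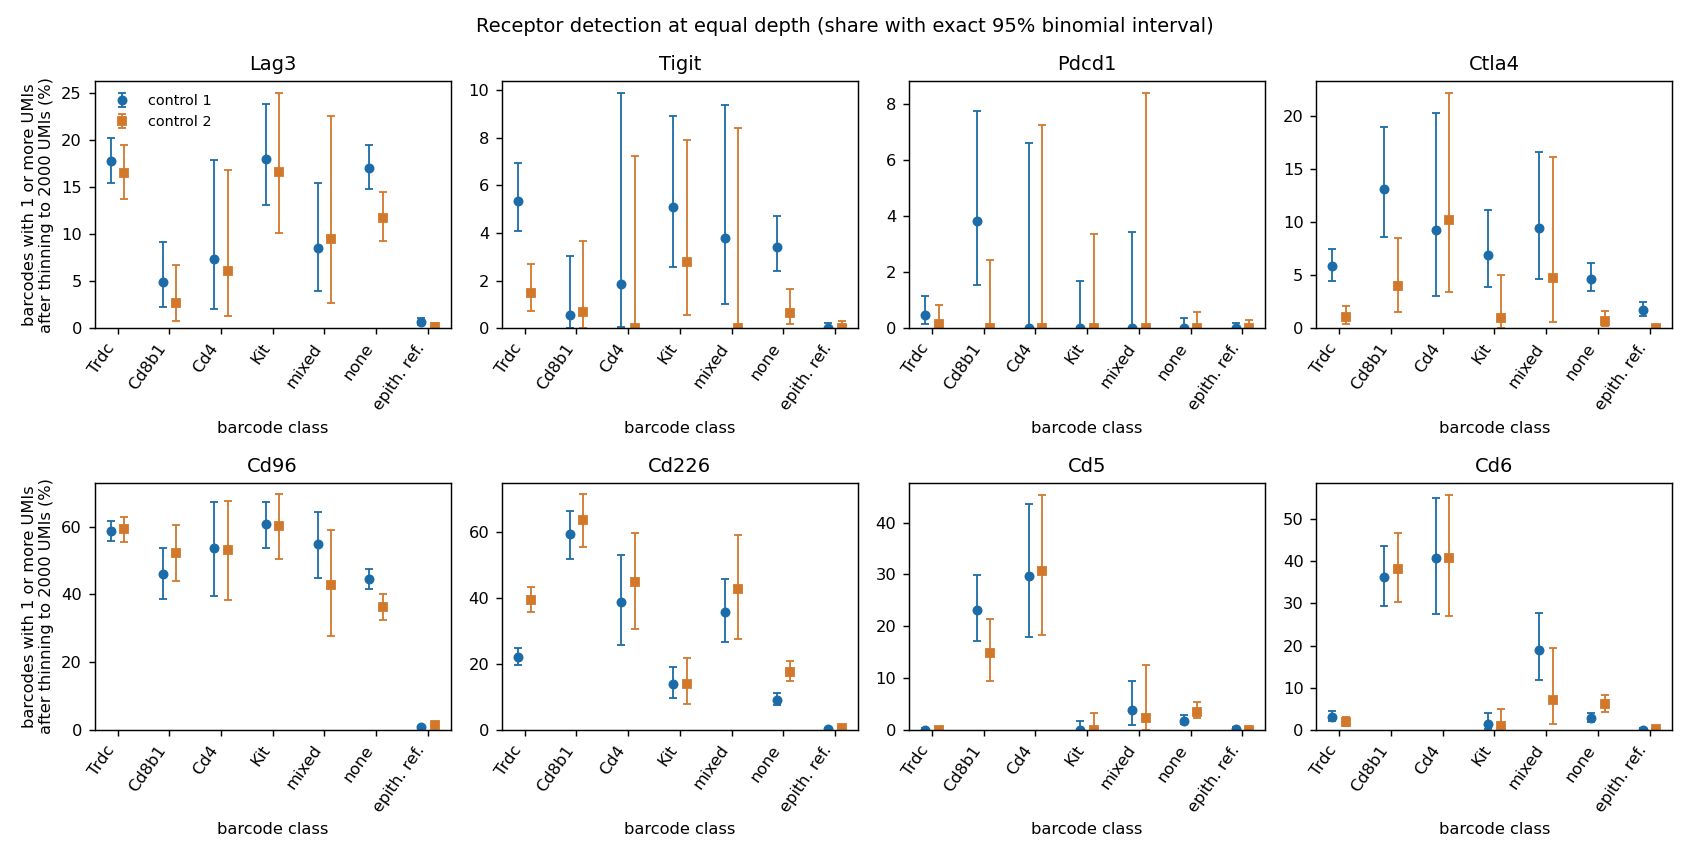
Share of barcodes (%) with at least 1 UMI of each receptor after thinning to 2000 UMIs, by class on the horizontal axis (epith. ref. is the epithelial reference) and by library (circles control 1, squares control 2; bars are exact 95% binomial intervals; each panel has its own scale from 0). Cd5 and Cd6 reach 14.8% to 40.8% in the Cd8b1 and Cd4 classes and stay at 3.12% or less in the Trdc and Kit classes, while Cd96 lies between 46.2% and 60.6% in all 4.

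Each class was then set against the mean of the other 3 in 1 edgeR quasi-likelihood fit of the 8 class sums, blocked by library. Of the 8 receptors 7 passed the filter on low counts; Pdcd1 did not, and Cd5 passed through its levels in the Cd8b1 and Cd4 classes. Fold changes are given with an approximate standard error, the log2 fold change divided by the square root of the test's F statistic (n = 2 libraries). For genes with few UMIs in a class it can be smaller than the counting error. P-values are adjusted over the 10832 genes tested. With library as a block, they rest on how far class differences vary between these 2 libraries, an estimate partly shared over genes. That variation may be technical. In the Cd8b1 class 2 receptors were higher and 0 lower, where 0.434% of all genes tested were called (0.194% higher and 0.24% lower): Cd6, at a log2 fold change of 3.62 ± 0.13 (adjusted p = 0.000465), and Cd5. In the Cd4 class 2 were higher and 0 lower, where 0.489% of all genes were called (0.425% higher and 0.0646% lower): Cd6, at 3.94 ± 0.14 (adjusted p = 0.000433), and Cd5. Both Cd6 calls were kept in all 14 other settings, those without barcodes with 3 or more UMIs of other cell types' markers and without barcodes with 50% or more hemoglobin UMIs among them. Cd5 entered the fit through the classes where it is high and had 4 and 1 UMIs in the Trdc and Kit classes, so its calls are no support for its difference and its fitted folds no measure of it; it is described by its counts.

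In the Kit class 3 receptors were lower and 0 higher, where 7.51% of all genes were called (5.15% higher and 2.36% lower). Cd6, with 5 and 3 UMIs in the Kit class of control 1 and control 2, fell by 5.41 ± 0.22 on the log2 scale (adjusted p = 0.000511). Cd226, the activating receptor, fell by 2.17 ± 0.32 (adjusted p = 0.0166). Cd5 also passed (adjusted p = 0.0180), with 1 UMI in the class over both libraries. It was not called after thinning, when the class held it in 0 barcodes (adjusted p = 1). In the Trdc class 1 receptor was lower and 0 higher, where 0.646% of all genes were called (0.369% higher and 0.277% lower): Cd6 fell by 2.15 ± 0.17 on the log2 scale (adjusted p = 0.0250), a call lost where 2 UMIs were needed for a positive status (adjusted p = 0.0729). The median log2 fold change of the 7 receptors was -0.33 in the Trdc class, 1.01 in the Cd8b1 class, 1.03 in the Cd4 class and -1.77 in the Kit class, beside 0.011, 0.041, -0.035 and 0.023 over all genes tested.

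**Figure D2:**
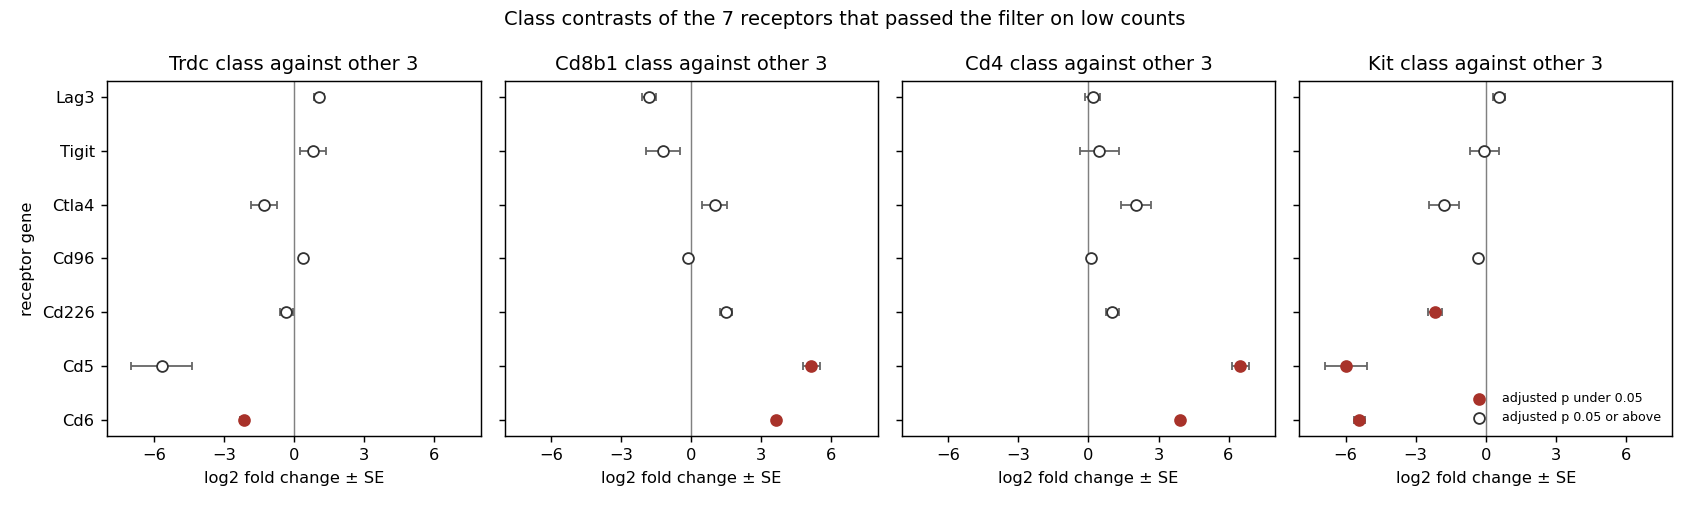
Log2 fold change (horizontal axis, points) of each class against the mean of the other 3, for the 7 receptors that passed the filter. Bars are the approximate standard error, the fold change divided by the square root of the edgeR F statistic (n = 2 libraries). Filled points had an adjusted p under 0.05. Cd5 and Cd6 are filled on the right for the Cd8b1 and Cd4 classes. On the left, Cd6 is filled for the Trdc class (-2.15), and Cd6 (-5.41), Cd226 and Cd5 are filled for the Kit class. The filled points of Cd5 are no support for its difference, since it passed the filter through its high classes.

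Because Cd5 had so few UMIs in the Trdc and Kit classes, its contrast between classes is best read from the counts. Over both libraries 4 UMIs in the Trdc class stood against 237 in the Cd8b1 class, a CPM ratio of 0.00308 (95% counting interval 0.000833 to 0.00800), and against 130 in the Cd4 class, a ratio of 0.00155 (0.000416 to 0.00407). The libraries differed: the Trdc to Cd8b1 ratio was 0.000968 in control 1 and 0.00843 in control 2, and the Trdc to Cd4 ratio 0.000665 and 0.00279, from 1 and 3 UMIs in the Trdc class. For Cd6 the Trdc to Cd8b1 ratio was 0.0511 (0.0424 to 0.0612) from 154 and 551 UMIs, and the Trdc to Cd4 ratio was 0.0429 (0.0344 to 0.0535). In the same fit Cd6 was lower in the Trdc than in the Cd8b1 class, at a log2 fold change of -4.33 ± 0.17 (adjusted p = 0.000602). It was higher in the Trdc than in the Kit class by 2.45 ± 0.26 on the log2 scale (adjusted p = 0.0315), from 154 and 8 UMIs. By counts that CPM ratio was 5.68, with a wide 95% counting interval of 2.81 to 13.4. The last difference was called in 9 of 14 other settings. It was not called among Cd3-positive barcodes, without barcodes with other cells' markers, without the deepest 6% of barcodes, after thinning or without library as a block. Of all genes, 0.868% were called between the Trdc and Kit classes, with 1 receptor among them, and 0.831% between the Trdc and Cd4 classes, with 2.

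Between the Cd8b1 and Cd4 classes 0 receptors were called by edgeR, 2 had an unadjusted p under 0.05 and DESeq2 called 0; of all genes, 0.0369% were called. The log2 difference of Cd5 was -1.02 ± 0.34 (adjusted p = 0.631) and that of Cd6 was -0.24 ± 0.15 (adjusted p = 0.755). The test had 2 library sums a class, each of 57 to 193 barcodes. The lack of a call does not show that the classes are alike. By counts, the Cd8b1 to Cd4 CPM ratio of Cd5 was 0.503 (counting interval 0.404 to 0.628) over both libraries. It was 0.687 (0.509 to 0.938) in control 1 and 0.332 (0.237 to 0.465) in control 2. For Cd6 the ratio was 0.840 (0.709 to 0.999) over both libraries. It was 0.839 (0.665 to 1.07) in control 1 and 0.839 (0.653 to 1.09) in control 2. These intervals cover counting only.

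Cd5 and Cd6 were often found in the same barcodes of the Cd4 class. At 2000 UMIs, Cd6 was in 75.0% and 73.3% of the 16 and 15 Cd5-positive Cd4 barcodes, against 26.3% and 26.5% of the Cd5-negative ones. In the Cd8b1 class it was in 13 of 42 and 11 of 22 Cd5-positive barcodes, against 37.9% and 36.2% of Cd5-negative ones, so the libraries did not go the same way there. The pairing in the Cd4 class was not particular to Cd5. There Cd6 was also in 61.9% and 59.1% of Cd226-positive barcodes, against 27.3% and 25.9% of Cd226-negative ones. By contrast, the 4 and 3 Lag3-positive Cd4 barcodes held 0 with Cd5 or Cd6. These shares over barcodes are descriptions and were not tested.

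Lag3, which binds MHC class II, was higher in the Trdc and Kit classes than in the Cd8b1 class. It was at 105 and 97.3 CPM in the Trdc class, 29.2 and 16.6 CPM in the Cd8b1 class, 42.1 and 86.3 CPM in the Cd4 class and 77.4 and 75.7 CPM in the Kit class. In summed CPM the Trdc class was the highest and the Cd8b1 class the lowest in each library, and the Cd4 class rested on 13 and 29 UMIs. In the epithelial reference it was at 1.36 and 0.908 CPM.

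Lag3 was higher in the Trdc than in the Cd8b1 class by 2.16 ± 0.32 on the log2 scale (adjusted p = 0.0348), in a comparison where 1.83% of genes and 3 of the 7 receptors were called. It was lower in the Cd8b1 than in the Kit class, at a log2 fold change of -1.78 ± 0.33 (adjusted p = 0.0400), where 4.37% of genes and 4 receptors were called. Both differences were called in all 14 other settings. The neighbours in this order were not separated: Trdc against Kit differed by 0.38 ± 0.28 on the log2 scale (adjusted p = 0.527), and Trdc against Cd4 by 0.68 ± 0.34 (adjusted p = 0.503). The sign of the Trdc to Kit difference turned in some settings, to -0.27 without the deepest 6% of barcodes. Against the mean of the other classes Lag3 missed the threshold in the Trdc class (1.07 ± 0.23, adjusted p = 0.121) and in the Cd8b1 class (-1.81 ± 0.30, adjusted p = 0.0820). It passed in 6 and 8 of 14 other settings.

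At equal depth Lag3 was in 17.8% (15.5% to 20.2%) and 16.5% (13.8% to 19.5%) of Trdc barcodes, 4.95% (2.29% to 9.18%) and 2.68% (0.736% to 6.73%) of Cd8b1, 7.41% and 6.12% of Cd4, and 18.1% and 16.7% of Kit barcodes. Another random draw of the UMIs moved the mean Cd8b1 share to 6.44%. The epithelial reference was at 0.656% and 0.167%. Barcodes with none of the 4 class genes also held Lag3, in 17.1% and 11.7% after thinning.

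Within the Trdc class Lag3 detection varied with Kit and Cd8a; these splits over barcodes are descriptions and were not tested. Kit-positive Trdc barcodes had Lag3 in 21.6% (17.5% to 26.1%) and 24.6% (18.4% to 31.6%) after thinning, against 15.5% (12.8% to 18.6%) and 13.7% (10.8% to 17.0%) of Kit-negative ones. Summed levels were 125 and 103 CPM in Kit-positive barcodes, against 90.2 and 93.6 CPM in Kit-negative ones, a smaller gap. By Cd8a, the CD8 alpha chain, Lag3 was in 19.7% and 19.3% of Cd8a-positive Trdc barcodes, against 8.47% and 5.22% of Cd8a-negative ones, and at 119.8 and 110.1 CPM, against 41.3 and 33.0 CPM. Before thinning the median depth was 6004.5 and 6483 UMIs in Cd8a-positive barcodes, against 4312 and 3478.5 UMIs in Cd8a-negative ones. Kit and Cd8a status were read before thinning, so a deeper barcode is more often positive, and the part of depth in these splits was not tested.

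**Figure D3:**
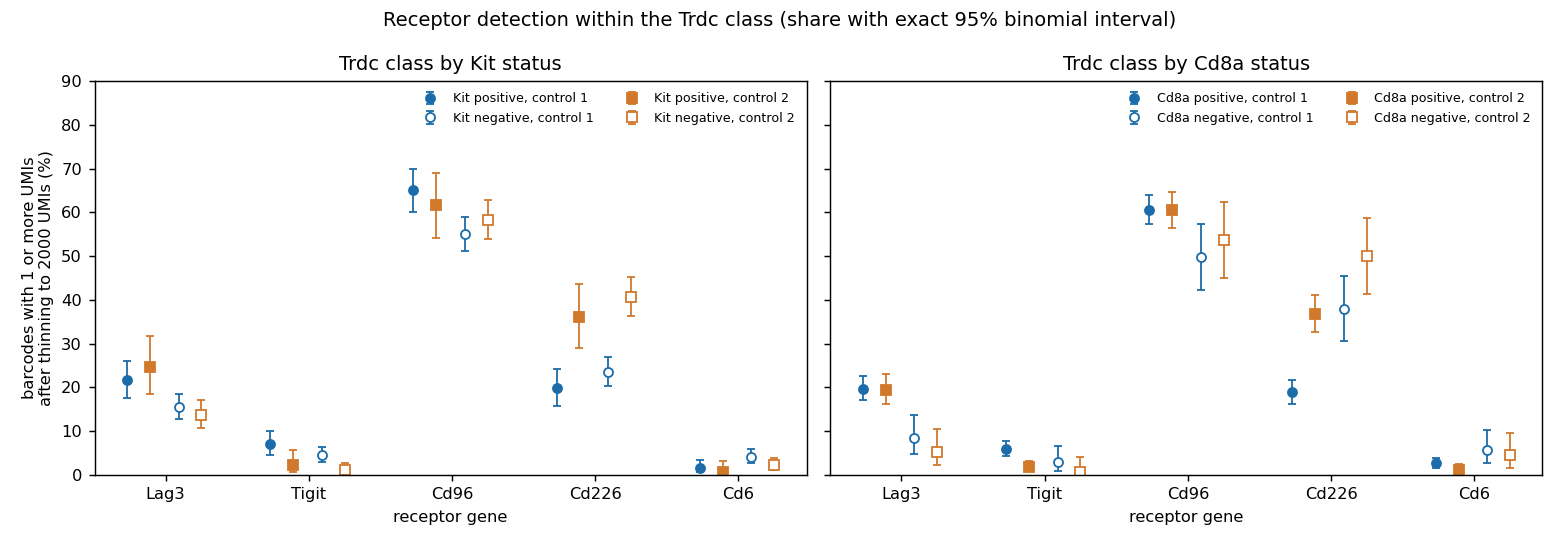
Share of Trdc barcodes (%) with at least 1 UMI of 5 receptors after thinning to 2000 UMIs, split by Kit status (left) and Cd8a status (right); filled points are positive and open points negative barcodes, circles control 1 and squares control 2, with exact 95% binomial intervals. Lag3 is higher in Cd8a-positive barcodes (19.7% and 19.3%, against 8.47% and 5.22%) and Cd226 lower (18.9% and 36.8%, against 37.9% and 67 of 134 barcodes).

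The receptors of nectin-family ligands differed from one another. Cd226, which activates, was at 147 and 252 CPM in the Trdc class, 526 and 464 CPM in the Cd8b1 class, 408 and 387 CPM in the Cd4 class and 48.7 and 106 CPM in the Kit class. The order Cd8b1, Cd4, Trdc, Kit was the same in both libraries. At equal depth its shares were 22.1% and 39.4% in Trdc, 59.3% and 63.8% in Cd8b1, 38.9% and 44.9% in Cd4 and 13.9% and 13.9% in Kit barcodes, against 0.328% and 0.5004% in the epithelial reference.

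Cd226 was higher in the Cd8b1 than in the Kit class by 2.74 ± 0.36 on the log2 scale (adjusted p = 0.0177), and higher in the Cd4 than in the Kit class by 2.40 ± 0.36 (adjusted p = 0.0322), where 3.01% of genes and 3 receptors were called. The first was called in all 14 other settings and the second in 13. Without barcodes with 3 or more UMIs of other cell types' markers, the second had an adjusted p of 0.108, and Cd226 in the Kit class against the other classes had one of 0.0610. The neighbours Cd8b1 and Cd4 (0.34 ± 0.34, adjusted p = 0.832) and Trdc and Cd4 (-1.02 ± 0.34, adjusted p = 0.304) were not separated. Trdc and Kit were not separated either (adjusted p = 0.111, called in 3 of 14 other settings). Nor were Trdc and Cd8b1 (adjusted p = 0.149, called in 6 of 14 other settings).

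Within the Trdc class Cd226 was found less often in barcodes with Lag3 and in those with Cd8a, also as untested descriptions. Cd226 was in 12.6% and 27.9% of Lag3-positive Trdc barcodes at 2000 UMIs, against 24.2% and 41.7% of Lag3-negative ones. It was in 18.9% and 36.8% of Cd8a-positive barcodes, against 37.9% of Cd8a-negative ones in control 1 and 67 of 134 in control 2, and its summed level was 127.7 and 209.9 CPM, against 235 and 464 CPM. Cd6 followed Cd226, at 11.5 and 8.36 CPM in Cd8a-positive Trdc barcodes, against 23.9 and 15.9 CPM in Cd8a-negative ones. By Kit, Cd6 was at 4.61 and 4.02 CPM in Kit-positive Trdc barcodes, against 20.8 and 12.98 CPM in Kit-negative ones.

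Cd96, which also binds nectin-family ligands, was present in all 4 classes, with 455 and 437 CPM in the Trdc class, 343 and 342 CPM in the Cd8b1 class, 379 and 405 CPM in the Cd4 class and 289 and 322 CPM in the Kit class. The highest and the lowest class mean, Trdc and Kit, were 446 ± 12.4 CPM and 305.5 ± 22.9 CPM (mean and SD, n = 2 libraries). No class was called for Cd96 against the others, with log2 fold changes between -0.33 and 0.38 and adjusted p-values of 0.136 to 0.794. Its direction in the Kit class depended on the setting: it was called lower with 2 UMIs for a positive status (-0.65 ± 0.13, adjusted p = 0.0143) and higher without the deepest 6% of barcodes (0.35 ± 0.10, adjusted p = 0.0472). Its shares at equal depth were 58.7% and 59.2% in Trdc, 46.2% and 52.3% in Cd8b1, 53.7% and 53.1% in Cd4 and 60.6% and 60.2% in Kit barcodes, against 0.765% and 1.33% in the epithelial reference.

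Tigit, the inhibitory member, had few UMIs. It was at 19.4 and 11.7 CPM in the Trdc class (145 and 62 UMIs), 9.73 and 1.66 CPM in the Cd8b1 class (11 and 2 UMIs), 3.24 and 20.8 CPM in the Cd4 class (1 and 7 UMIs) and 14.0 and 5.52 CPM in the Kit class (35 and 7 UMIs). Control 1 was the higher library in the Cd8b1 class and the lower one in the Cd4 class, and no class contrast was called (adjusted p from 0.647 to 0.985). In the epithelial reference Tigit had 0 and 3 UMIs. At equal depth its shares were 5.37% and 1.49% of Trdc barcodes and 5.09% and 2.78% of Kit barcodes.

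Of the CD28 family, Ctla4 had levels that differed between the libraries in most classes. It was at 32.8 and 4.90 CPM in the Trdc class, 97.3 and 19.9 CPM in the Cd8b1 class, 68.0 and 77.4 CPM in the Cd4 class and 25.5 and 1.58 CPM in the Kit class. Control 1 was the higher library in 3 of these 4 classes and the lower one in the Cd4 class. No class contrast was called (adjusted p from 0.153 to 0.612). Single barcodes held up to 26 of the 110 Ctla4 UMIs of the Cd8b1 class in control 1.

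Ctla4 was also the higher in control 1 within the epithelial reference. The epithelial reference held 186 Ctla4 UMIs in 132 of 2411 barcodes in control 1 (8.16 CPM) and 5 UMIs in 5 of 1562 barcodes in control 2 (0.379 CPM). In control 1, 86 of the 186 UMIs were in 45 barcodes with a Cd3 gene and 100 were in barcodes without one. The ratio of epithelial to Ptprc-positive UMIs in control 1 was 0.258 for Ctla4, against 0.0119 for Cd96, 0.0177 for Lag3 and 0.0133 for Cd226. In control 1 the Ctla4-positive reference barcodes had a median of 11247.5 UMIs, against 3893 UMIs in Ctla4-negative ones. They had Olfm4, a crypt marker, at 830.2 CPM, against 68.7 CPM, and Mki67, a proliferation marker, at 52.6 CPM, against 7.35 CPM. The 5 such barcodes of control 2 had 0 UMIs of Olfm4 and of Mki67, against 115.6 and 14.9 CPM in the Ctla4-negative ones. The part of depth or of crypt cells in this signal was not tested.

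**Figure D4:**
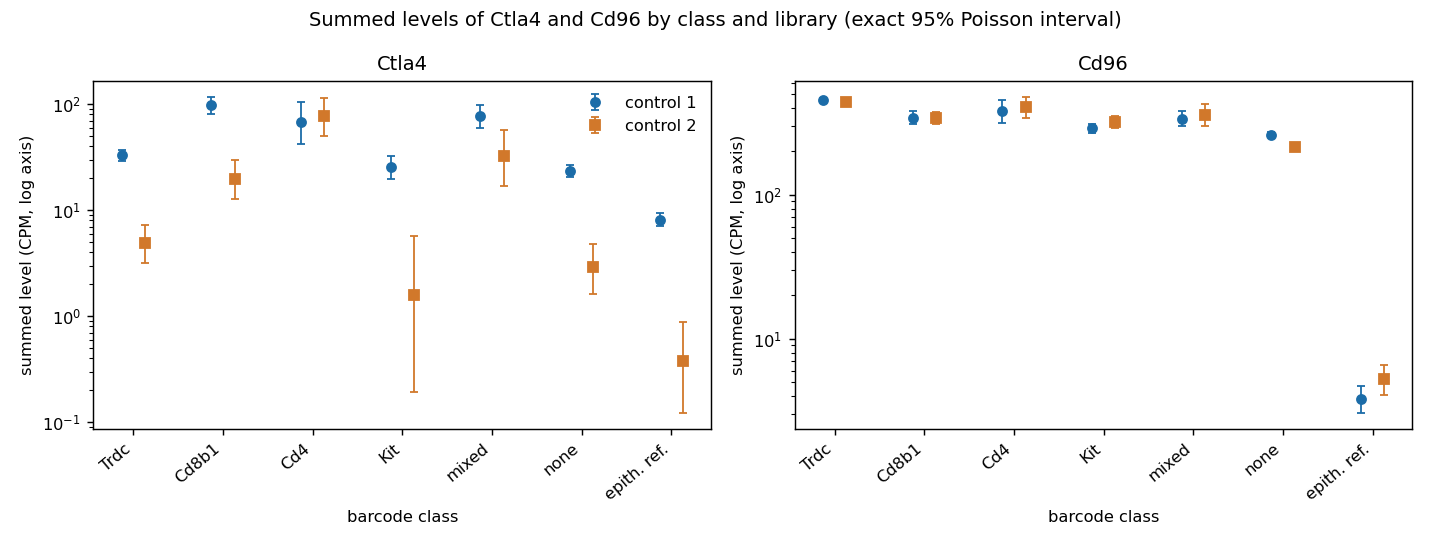
Summed level (CPM, log axis) of Ctla4 (left) and Cd96 (right) by class and library, with exact 95% Poisson intervals that cover counting only. Ctla4 is higher in control 1 than in control 2 in every group shown except the Cd4 class (68.0 and 77.4 CPM) and reaches 8.16 CPM in the epithelial reference of control 1, while Cd96 there is at 3.82 and 5.22 CPM.

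Foxp3, the regulatory T cell factor with which Ctla4 is often found, was in 1 Cd4 barcode of each library, and both carried 3 Ctla4 UMIs. The other 62 and 56 Cd4 barcodes held 18 and 23 Ctla4 UMIs. Icos, a costimulatory receptor encoded beside Ctla4, was in 2 of 5 Ctla4-positive Cd4 barcodes of each library at 2000 UMIs, against 10.2% and 6.82% of the Ctla4-negative ones.

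Pdcd1 was the receptor with the fewest UMIs, 35 and 17 in all Ptprc-positive barcodes. It was at 1.87 and 1.89 CPM in the Trdc class (14 and 10 UMIs), 15.9 and 3.32 CPM in the Cd8b1 class (18 and 4), 3.24 and 0 CPM in the Cd4 class (1 and 0) and 0.399 and 0.789 CPM in the Kit class (1 and 1). Over both libraries the Trdc to Cd8b1 ratio of CPM was 0.199 (95% counting interval 0.107 to 0.373), and within control 2 it was 0.569 (0.164 to 2.48), which includes 1. In the 1381 and 956 barcodes with none of the class genes there were 0 Pdcd1 UMIs.

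Counted per barcode at 2000 UMIs, a mean of 1.13 and 1.20 of the 8 receptors was found in Trdc barcodes, 1.87 and 1.77 in Cd8b1, 1.81 and 1.86 in Cd4 and 1.06 and 0.954 in Kit barcodes. The epithelial reference was at 0.0377 and 0.0225.

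Other genes of these pathways were counted by list in the same fit. A gene can pass the filter on low counts through its high classes alone. A call against classes where it is near 0 is then no support for a difference. Of 15 other inhibitory receptors, 12 were tested: 2 rose and 1 fell in the Trdc class, 2 rose and 1 fell in the Cd8b1 class, 1 rose in the Cd4 class, and 1 rose and 1 fell in the Kit class. Over all genes tested, 0.369% rose and 0.277% fell in the Trdc class, 0.194% and 0.24% in the Cd8b1 class, and 0.425% rose in the Cd4 class. In the Kit class, where 5.15% of all genes rose and 2.36% fell, counts this small are near the share over all genes. Entpd1, an ectonucleotidase, was at 109.2 and 92.0 CPM in the Trdc class, 19.5 and 16.6 CPM in the Cd8b1 class, 55.1 and 50.6 CPM in the Cd4 class and 67.4 and 71.8 CPM in the Kit class. It rose in the Trdc class (log2 fold change 1.32 ± 0.13, adjusted p = 0.0274) and in the Kit class (0.64 ± 0.14, adjusted p = 0.0424), and fell in the Cd8b1 class (-2.00 ± 0.17, adjusted p = 0.0141). Cd244a, a SLAM-family receptor, rose in the Trdc class (0.95 ± 0.12, adjusted p = 0.0414). The fitted log2 fold changes of Lair1, a collagen receptor, were 2.56 ± 0.31 in the Cd8b1 class and 3.30 ± 0.35 in the Cd4 class. They were -2.80 ± 0.39 in the Trdc class and -3.06 ± 0.46 in the Kit class. Btla was called in the Cd8b1 class (3.62 ± 0.49, adjusted p = 0.0481), with -4.11 in the Trdc and -2.41 in the Kit class. Both genes may have passed the filter through their high classes alone, so their calls are not taken as support for a difference. The list's median log2 fold change was -0.14, -0.26, -0.099 and 0.33 in the Trdc, Cd8b1, Cd4 and Kit classes.

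Of 16 other costimulatory receptors, 15 were tested: 2 fell in the Trdc class, 1 rose in the Cd8b1 class, 2 rose in the Cd4 class and 3 fell in the Kit class. Over all genes tested, 0.277% fell in the Trdc class and 2.36% in the Kit class, while 0.194% rose in the Cd8b1 class and 0.425% in the Cd4 class. Cd28, the counterpart of Ctla4, had 21 and 16 UMIs in the Cd4 class (68.0 and 47.6 CPM), 44 and 13 UMIs in the Cd8b1 class and 0 UMIs in the Trdc and Kit classes of both libraries. Cd40lg, the helper T cell ligand of CD40, was at 155 and 59.5 CPM in the Cd4 class, against 0.534 and 0.189 CPM in the Trdc class. It rose in the Cd4 class (5.69 ± 0.31, adjusted p = 0.00232). Cd2, an adhesion receptor, was at 56.6 and 48.1 CPM in the Cd8b1 class, against 3.60 and 4.53 CPM in the Trdc class; it rose in the first (2.49 ± 0.26, adjusted p = 0.0288) and fell in the second (-2.40 ± 0.32, adjusted p = 0.0424). Cd28, Cd40lg and Cd2 were at 0 or low in the Trdc class. Like Cd5, they passed the filter on low counts through the classes where they are high. They make up all the list's calls in the Trdc, Cd8b1 and Cd4 classes, and Cd2 and Cd40lg are 2 of the 3 in the Kit class. Those calls are no support for the differences, which are described by counts where these are given. The other gene that fell in the Kit class was Slamf7 (-0.99 ± 0.16, adjusted p = 0.0222). The list's median was -0.65, 0.43, 1.01 and -0.90 in the Trdc, Cd8b1, Cd4 and Kit classes.

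All 18 signalling partners were tested. In the Kit class 8 fell and 0 rose, where 2.36% of all genes fell and 5.15% rose. In the Cd8b1 class 1 rose, where 0.194% of all genes did. In the Trdc and Cd4 classes 0 were called (4 and 9 with an unadjusted p under 0.05, 2 and 6 called by DESeq2). Lat, the adaptor that links the T cell receptor to downstream signals, was at 33.9 and 33.1 CPM in the Kit class, against 99.3 and 113 CPM in the Trdc class, 372 and 257 CPM in the Cd8b1 class and 272 and 202 CPM in the Cd4 class (-2.54 ± 0.21 in the Kit class, adjusted p = 0.00531). Ubash3a, a negative regulator of T cell receptor signalling, had 2 and 4 UMIs in the Kit class and was also among the 8 (adjusted p = 0.0154). With so few UMIs there, its call is no support for a difference. The list's median was 0.18, -0.021, 0.34 and -0.33 in the Trdc, Cd8b1, Cd4 and Kit classes. Epithelial markers (13 of 13 detected in both) summed to 12000.5 and 10893.5 CPM in the Kit class, against 5184 and 3749.9 CPM in the Trdc class, 3526 and 11653 CPM in the Cd8b1 class (12 of 13 detected) and 2804 and 6141 CPM in the Cd4 class (12 of 13), and their part in the Kit results was not tested; without barcodes with 1% or more epithelial UMIs, the Kit class had the same number of receptors called, 3.

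Of 23 exhaustion and residency regulators 21 were tested, and 1, Batf, fell in the Kit class (-1.02 ± 0.20, adjusted p = 0.0345), a count near the 2.36% of all genes that fell there. In the Trdc, Cd8b1 and Cd4 classes 0 were called by edgeR (7, 8 and 7 with an unadjusted p under 0.05, 3, 1 and 4 called by DESeq2). Of 20 ligands 13 were tested and 0 were called in any class by edgeR (5, 1, 3 and 4 with an unadjusted p under 0.05 and 3, 0, 3 and 1 called by DESeq2 in the Trdc, Cd8b1, Cd4 and Kit classes). The regulators' median was -0.035, -0.033, 0.60 and -0.46, and the ligands' median -0.64, -0.38, 0.25 and 1.14, in the same order.

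The ligands lay on both sides of the Ptprc divide. Cd274, which binds Pdcd1, was at 36.1 and 23.7 CPM in Ptprc-positive barcodes, against 2.28 and 2.04 CPM in the epithelial reference, and Pdcd1lg2 was at 32.2 and 21.0 CPM, against 0.527 and 0.454 CPM. Nectin3 was at 32.7 and 39.7 CPM in Ptprc-positive barcodes, against 95.3 and 103.1 CPM in the epithelial reference, and Nectin2, a ligand of Cd226 and Tigit, was at 28.0 and 20.6 CPM, against 70.9 and 64.0 CPM. Pvr, a further nectin-family ligand, was at 5.00 and 6.14 CPM, against 5.92 and 7.27 CPM. These levels were not tested.

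The genes whose levels over the 12 class sums (6 classes, 2 libraries) were most like each receptor's were named by Pearson's r of log2(CPM + 1) among 10832 genes, as a description. For Cd6 they were BE692007 (0.99), Itgal (0.97) and Ubash3a (0.95), and for Cd5 A430093F15Rik (0.98), Ntrk3 (0.96) and Cd2 (0.96). For Cd226 they were Grap2 (0.98), Bcl11b (0.97) and Inpp4b (0.97), and for Lag3 Itih5 (0.94), Spry2 (0.94) and Txk (0.93). For Cd96 they were Zdhhc18 (0.94), Cdk17 (0.94) and Dennd1a (0.93). For Tigit they were Gmfb (0.91), Primpol (0.90) and Tex2 (0.89), and for Ctla4 Psmd10 (0.92), Psmb9 (0.92) and Pfdn4 (0.91). The sums of a library share its preparation and depth.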

How the data were processed

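Per the labels' protocols, 10x Genomics Chromium 3' libraries were prepared for 2 control samples. The authors deposited a matrix of raw UMI counts for each, which its header credits to Cell Ranger 7.1.0. The submitters' processing notes list that version and version 6.1, with GRCm38 (mm10) as the genome. How barcodes were kept, and whether intron reads were counted, are not given in the sources used here.

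UMIs were summed per class and library. The 8 sums of the 4 tested classes (308802 to 7490012 UMIs) entered edgeR 4.0.16 in R 4.3.3 (quasi-likelihood test, TMM, filterByExpr, 3 residual degrees of freedom). Library was a block, since the classes of a library come from 1 suspension. Benjamini-Hochberg adjustment ran over the 10832 tested genes other than the class genes and Ptprc, at a threshold of 0.05. Detection shares were taken unthinned and after thinning each barcode to 2000 UMIs, leaving out shallower barcodes (1025 of 1119 and 672 of 766 were kept in the Trdc class), with exact 95% intervals. No doublet caller was run, and an alternative left out the deepest 6% of barcodes. Other alternatives changed the normalization, the filters, the status minimum and the tool (DESeq2 1.42.0). The fit and the thinning were tested on simulated data.

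Named genes were the 8 receptors, per class contrast up to 3 listed genes with the highest and 3 with the lowest log2 fold change past the threshold, and for each receptor the 3 genes most like it. Batf, Slamf7, Icos and the ligands were named after their values were seen. The receptors, lists and tests were chosen with earlier results of these data known.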

Additional observations from a re-analysis of the deposited data

Results flagged for a closer look

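The epithelial reference, which entered no test and served as background, held more UMIs of 6 of the 8 receptors than the 3 that a count of 0 allows. Ctla4 had 186 UMIs in control 1 and 5 in control 2. Cd96 had 87 and 69 UMIs, Cd226 had 35 and 30, Lag3 had 31 and 12, Cd6 had 6 and 9, and Cd5 had 6 and 4 UMIs. A Cd3 gene was seen in 17.6% and 21.1% of these barcodes. The part of free RNA or of barcodes with more than 1 cell was not tested.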

How the results depend on the processing

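Main counts of receptors called were 1 (Trdc), 2 (Cd8b1), 2 (Cd4) and 3 (Kit). The Trdc count was 3 without the deepest 6% of barcodes, with DESeq2 and with no filter on low counts, and 2 after thinning and without barcodes with 1% or more epithelial UMIs. The Cd8b1 count was 4 in those 5 settings and also with 2 UMIs for a positive status. The Cd4 count was 4 with no filter on low counts, and the Kit count was 5 without the deepest 6%. Where the Trdc count was 3, Cd5 was among the calls, and its calls are no support for its difference. The other 43 recomputed counts were within 1.5 times the main one, the fit with no replicate block (counts of 1, 2, 2 and 3) included. The share of all genes called changed with the setting too, and the receptor counts are to be read beside it. Without barcodes with 1% or more epithelial UMIs it was 2.64% (Trdc) and 2.04% (Cd8b1), beside 0.646% and 0.434% in the main fit. With 2 UMIs for a positive status it was 1.10% (Cd8b1) and 20.2% (Kit), beside 0.434% and 7.51%. The causes were not tested.

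None of the log2 fold changes against the other classes whose sign turned was called in the fit reported. Tigit in the Kit class (main -0.057) was 0.17 with 2 UMIs for a positive status, 0.33 among Cd3-positive barcodes, 0.42 without other-cell markers, 0.19 without epithelial barcodes, 0.53 without the deepest 6% and 0.043 with no replicate block. Cd96 in the Kit class (main -0.33) was 0.0014 among Cd3-positive barcodes, 0.055 without other-cell markers, 0.24 after thinning and 0.35 without the deepest 6% (called, adjusted p = 0.0472), but -0.65 with 2 UMIs for a positive status (called, adjusted p = 0.0143). Cd96 in the Cd4 class was -0.0076 without epithelial barcodes, -0.23 without the deepest 6% and -0.25 after thinning, and in the Cd8b1 class 0.013 with 2 UMIs for a positive status. Lag3 in the Cd4 class was -0.87 after thinning, and Tigit there was -0.16 with 2 UMIs for a positive status. With 1 library left out no residual degree of freedom is left, so those values have no test: Lag3 in the Cd4 class was -0.55 in control 1 alone and 0.78 in control 2 alone, and Tigit there was -1.81 and 1.86. Values with 1 library left out are log2(CPM + 1) differences, while the main ones are edgeR fold changes. Of them, 19 lay further from the main value than the SD of the 2 single-library values, and 37 did not. Either of 2 values lies within that SD of their mean, so this count cannot show the effect of leaving out a library. Under another thinning depth or seed, 57 mean detection shares moved by more than the spread between libraries and 39 did not.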
